A study of Mus musculus with 6 samples.

Results

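The 37 mitochondrially encoded genes of the mouse were followed in liver RNA of cadmium-exposed and control mice. They are all rows whose symbol starts with mt-, 37 of 34352 genes with symbols, and they are also all 37 genes that the annotation places on the mitochondrial chromosome. They comprise 13 mRNA genes, 22 tRNA genes and 2 rRNA genes. Cadmium libraries came from livers of WT C57BL/6 male mice given 20 mg/kg CdCl2 daily by gavage until day 90. Control libraries came from livers of WT C57BL/6 male mice handled in the same way with a dose of 0 mg/kg. Mice of both groups were 6 to 8 weeks old per the labels, and each group has 3 libraries, replicates 1 to 3. The labels assign 6 mice to each group and do not say how they map to the 3 libraries. The p-values therefore measure the spread between these libraries, which may be technical. RNA was broken into pieces of 200 to 500 bases, and the sequenced input fraction is, per the labels, RNA that an antibody against N6-methyladenosine left unbound. A change in abundance and a change in the share bound cannot be told apart in that fraction.

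Mitochondrial DNA is a small circle transcribed from both of its strands into long precursors. The tRNAs lie between the other genes and are cut out by dedicated nucleases, which frees the mRNAs and rRNAs on either side. Every mitochondrial mRNA encodes a membrane subunit of the respiratory chain or of ATP synthase, and all other proteins of the organelle, its polymerase, ribosomal proteins and tRNA synthetases included, come from nuclear genes. Hepatocytes are rich in mitochondria, and cadmium is known as a toxicant of these organelles. Here 12 mRNAs, 14 tRNAs and both rRNAs are read from the heavy-strand promoter. The mRNA mt-Nd6 and 8 tRNAs are read from the light-strand promoter.

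Reads recovered from the deposited values totalled 42115960, 68587128 and 65662619 in cadmium replicates 1, 2 and 3, against 59095817, 50117621 and 42476574 in control replicates 1, 2 and 3. Lists of 3 values per group are in this replicate order throughout. The 10 genes with the most reads held 34.4%, 35.4% and 33.3% of reads in cadmium and 44.6%, 35.6% and 35.9% in control. None of the mitochondrial genes was among those 10 in any library. The metallothionein gene Mt1, which cadmium induces in liver, was at 378, 729 and 586 FPKM (fragments counted per kilobase of a gene and scaled to library size) in cadmium and at 7.39, 21.4 and 41.3 FPKM in control, so each library matched its exposure label. Xist, which silences an X chromosome in female cells, was at 35.5, 27.1 and 27.7 FPKM in cadmium and at 21.1, 19.7 and 25.8 FPKM in control, which goes against the label of male mice in all 6 libraries. Hepatocyte markers, 9 found of 10 listed, were above 1 FPKM in all libraries, and Alb, which encodes albumin, was at 17288, 10130 and 17899 FPKM in cadmium and at 10244, 17185 and 17478 FPKM in control.

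1 library of each group stood apart in mitochondrial RNA. Cadmium replicate 2 and control replicate 1 held the lowest pair of FPKM values in 25 of 37 mitochondrial genes. This was so for both rRNAs, for 12 of 12 heavy-strand mRNAs, for 7 of 8 light-strand tRNAs and for 4 of 14 heavy-strand tRNAs. Among all 9908 genes tested the same 2 libraries were the lowest pair in 9.20%. Control replicate 1 was at the same time the highest library in 8 mitochondrial genes, mt-Nd6 and 7 heavy-strand tRNAs, while it was the highest in 7.26% of all tested genes. The ratio of the highest to the lowest library had a median of 2.82 over the mitochondrial genes, from 1.48 for mt-Co1 to 16.5 for mt-Ta, and of 1.50 over all tested genes. Both libraries were named in earlier results of these data, so these counts describe them and are no test.

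**Figure D1:**
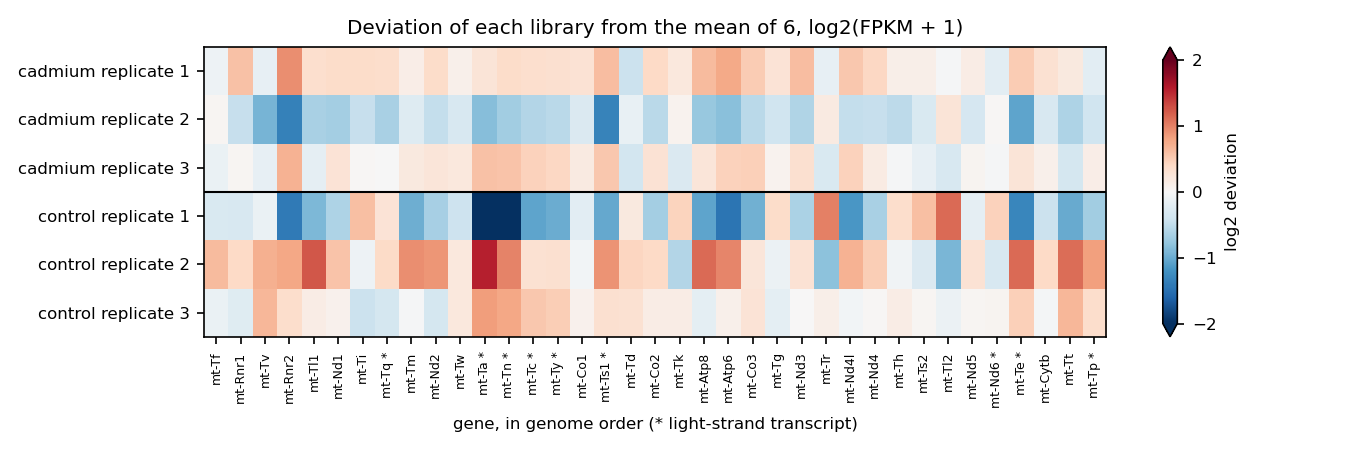
Each column is 1 of the 37 mitochondrial genes in genome order and each row 1 library, cadmium above control, and colour gives the deviation of log2(FPKM + 1) from the mean of the 6 libraries. Cadmium replicate 2 and control replicate 1 are blue in most columns, and control replicate 1 is red in mt-Tr and mt-Tl2.

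Other RNAs moved with these 2 libraries. The summed FPKM of the 9 hepatocyte markers was 24895, 17249 and 25925 in cadmium and 16415, 24449 and 24677 in control, lowest in the same libraries. Rn7s1, a 7SL RNA gene of the signal recognition particle, was at 215924, 263702 and 199217 FPKM in cadmium and at 319847, 211728 and 217522 FPKM in control, highest in the same libraries. Summed erythroid markers were 568, 175 and 206 FPKM in cadmium and 127, 446 and 324 FPKM in control, which also put the same 2 libraries lowest. The 6 erythroid markers were all found and none was at 0 in all libraries. The part of these differences in the mitochondrial values was not tested.

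The comparison of cadmium with control asked whether any mitochondrial transcript differed after 90 days of exposure. None of the 36 mitochondrial genes that passed the filter was called at an adjusted p of 0.05 (limma on log2(FPKM + 1), 3 libraries each), while 9.68% of all 9908 tested genes were called. Called higher in cadmium were 7.86% of tested genes and called lower 1.82%, that is 779 and 180 genes. The balance depended on the scaling, with 381 called higher and 493 lower in the deposited log2 values. At an unadjusted p of 0.05, 1 mitochondrial gene passed, mt-Tv, against 27.0% of all tested genes. With voom, a limma method for counts, applied to recovered reads, 0 were called too, with 2 at an unadjusted p of 0.05. Of all 9908 tested genes voom called 869, with 2527 at an unadjusted p of 0.05. In whole liver, fewer cells of a type and less RNA per cell cannot be told apart. The filter asked for at least 1 FPKM in at least 3 libraries, and mt-Td did not pass it.

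Fold changes of the 36 tested genes lay on both sides of 0. The median log2 fold change was 0.09 for the 13 mRNAs and -0.13 for the 21 tested tRNAs, beside 0.09 over all tested genes. Of the mRNAs 10 had a positive and 3 a negative value, and of the tested tRNAs 4 had a positive and 17 a negative one. With the deposited log2 values in place of FPKM the medians were -0.09 for mRNAs, -0.31 for tRNAs and -0.06 for all genes. Of the 36 mitochondrial genes 31 were then negative, and the share of all tested genes with a negative value was not counted. The 95% intervals reached from 0.46 to 2.91 log2 units on each side, and 35 of 36 included 0. A difference smaller than these widths was not detectable with 3 libraries a group. The intervals are not adjusted for the number of genes tested, so a larger difference could also go uncalled, as that of mt-Tv did. The median residual standard deviation was 0.584 log2 units over the tested mitochondrial genes, 0.164 over the nuclear-encoded subunits of the same complexes and 0.134 over all tested genes.

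**Figure D2:**
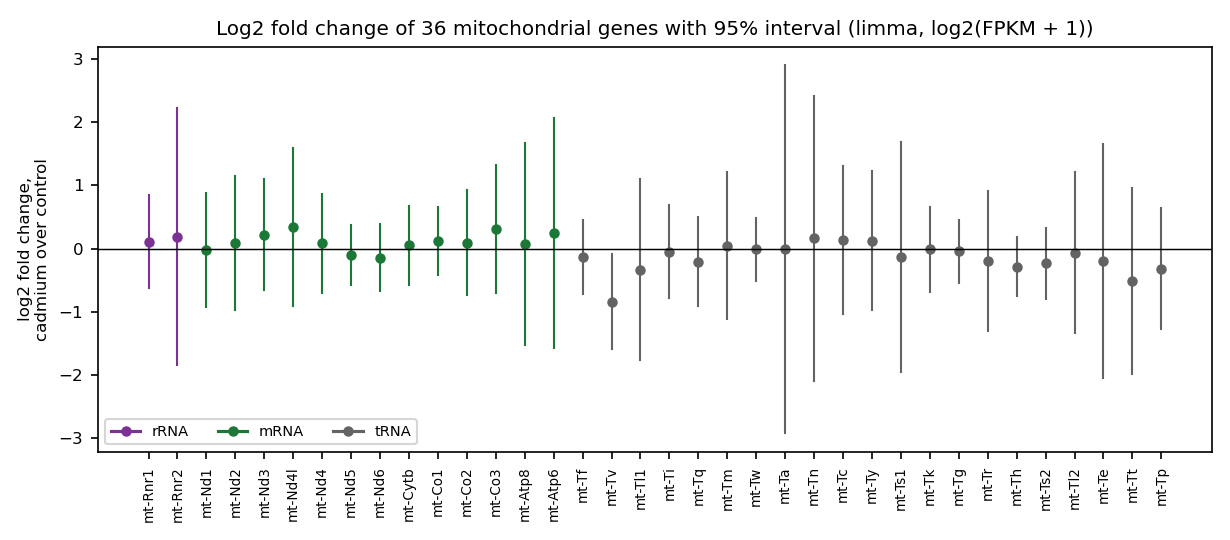
Points are the log2 fold changes of cadmium over control for the 36 tested mitochondrial genes, with 95% intervals from limma, and colours separate rRNAs, mRNAs and tRNAs. Every interval except that of mt-Tv includes 0, and that of mt-Ta is the widest.

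In the authors' deposited table none of the 37 genes had an FDR below 0.05, against 6.87% of its 34352 genes. The lowest FDR of a mitochondrial gene in the authors' deposited table was 0.0777, for mt-Tv. The authors' deposited table gave 4 of the 37 genes an unadjusted p below 0.05, the tRNA genes mt-Tv, mt-Th, mt-Ts2 and mt-Tt. It gave a negative log2 fold change to 32 of 37. The shares of all its genes that met these 2 marks were not counted, so neither count is read as particular to the mitochondrial genes. The median log2 fold change in the deposited log2 values was -0.06 over all 9908 tested genes.

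As a share of all reads, the 37 genes held 2.73%, 1.23% and 2.36% in cadmium, against 1.20%, 2.48% and 2.09% in control. The share of mitochondrial mRNA was 1.52%, 0.946% and 1.38% in cadmium and 0.927%, 1.40% and 1.29% in control. That of mitochondrial rRNA was 1.18%, 0.277% and 0.964% in cadmium and 0.265%, 1.05% and 0.782% in control. In each of these shares cadmium replicate 2 and control replicate 1 were the lowest libraries, and the groups overlapped. The tRNA genes held 0.0188%, 0.0104% and 0.0180% in cadmium and 0.0111%, 0.0226% and 0.0198% in control. The log2 differences were 0.12 for all genes, 0.08 for mRNA, 0.18 for rRNA and -0.17 for tRNA, with exact two-sided permutation p of 0.7, 0.6, 0.7 and 0.5. Adjusted over the 27 shares and ratios tested, no p was below 0.972, and the smallest exact p that 3 against 3 libraries allow is 0.1.

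The labels give each library a batch number equal to its replicate number, and each batch holds 1 cadmium and 1 control library. Within batch 1, 27 of the 37 genes were higher in cadmium, with a median log2 difference of 0.98. Within batch 2, 4 of 37 were higher and the median was -0.89. Within batch 3, 20 of 37 were higher and the median was 0.00. Batches 1 and 2 each hold 1 of the 2 libraries that stood apart, control replicate 1 in batch 1 and cadmium replicate 2 in batch 2. The share of all 37 genes differed by 1.18, -1.01 and 0.18 log2 units in batches 1, 2 and 3, and the share of rRNA by 2.16, -1.92 and 0.30. Only 4 genes, mt-Tv, mt-Td, mt-Th and mt-Ts2, had the same sign in all 3 batches, lower in cadmium, while 49.6% of all tested genes had the same sign in all 3. With the batch number as a replicate block 0 of 36 were called, beside 2.50% of all tested genes, and the lowest adjusted p was 0.200 (limma).

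Without cadmium replicate 2 and control replicate 1, which left 2 libraries a group, 1 of 36 mitochondrial genes was called lower in cadmium, mt-Tv. In that setting 722 of 9908 tested genes were called, 244 of them lower. The 2 libraries left out were those that stood apart in the mitochondrial genes themselves, so this call is given as a description. Without both libraries the median log2 fold change was 0.04 for mRNAs, -0.04 for tRNAs and 0.06 over all tested genes. Leaving out only control replicate 1 gave a median of -0.21 for mRNAs, and leaving out only cadmium replicate 2 gave 0.35. Without control replicate 2 it was also 0.35, so the sign of the mRNA median rested on single libraries.

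The rRNAs form the core of the mitochondrial ribosome, mt-Rnr1 (chrM:70-1024 on GRCm38) in its small and mt-Rnr2 (chrM:1094-2675) in its large subunit. By mean read number, the large rRNA mt-Rnr2 was first of the mitochondrial genes and 16th of all genes. In cadmium replicate 2 and control replicate 1 it had 149965 and 119707 reads, fewer than mt-Co1 with 320586 and 283286. mt-Rnr2 was at 5428, 1119 and 4593 FPKM in cadmium and at 1064, 4885 and 3638 FPKM in control. The low library of each group lay at about the same level and the others well above it, and the groups overlapped. Its log2 fold change was 0.19 (SE 0.83, adjusted p = 0.915, limma). The small rRNA mt-Rnr1 was at 1019, 496 and 696 FPKM in cadmium and at 544, 897 and 573 FPKM in control, which is 0.11 as a log2 fold change (SE 0.31, adjusted p = 0.861). The reads of mt-Rnr1 per read of mt-Rnr2 were 0.113, 0.267 and 0.0914 in cadmium and 0.309, 0.111 and 0.0951 in control. The ratio was highest in cadmium replicate 2 and control replicate 1, where mt-Rnr2 was lowest, and did not separate the groups (exact two-sided permutation p = 0.8). rRNA reads per mRNA read were 0.778, 0.293 and 0.698 in cadmium and 0.286, 0.749 and 0.608 in control (exact p = 0.7). Of the summed mitochondrial RNA classes, rRNA varied most between libraries, 4.47-fold as a share of reads, against 1.64-fold for mRNA and 2.17-fold for tRNA. This came from mt-Rnr2, whose FPKM varied 5.10-fold, while that of mt-Rnr1 varied 2.06-fold. The median over single genes was 2.36-fold for mRNAs and 3.33-fold for tRNAs.

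**Figure D3:**
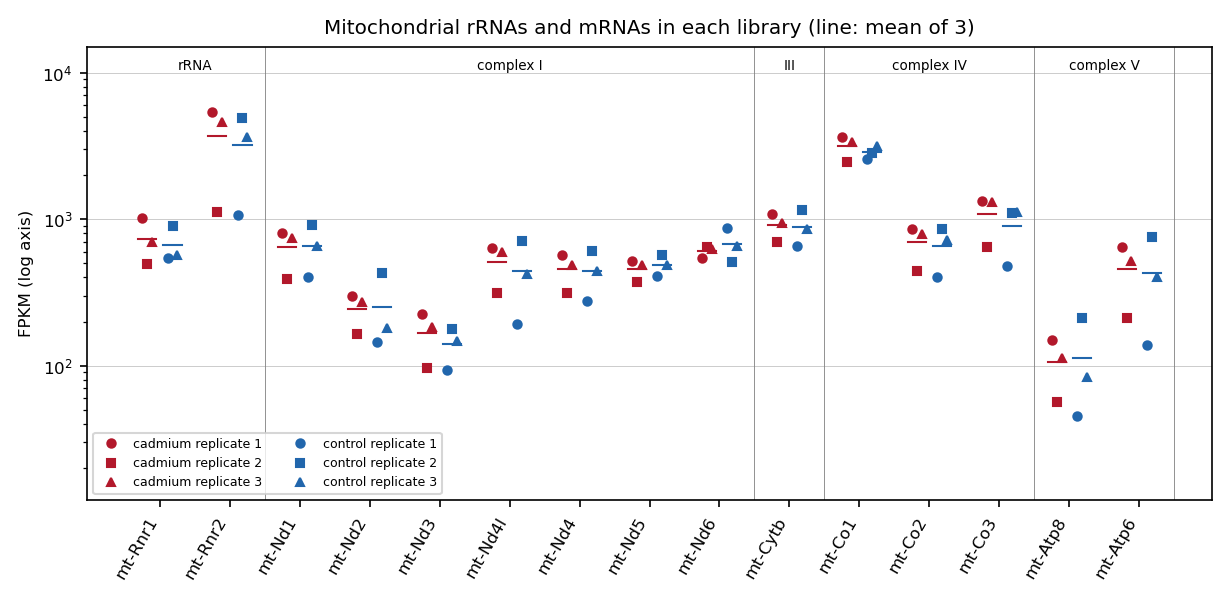
Each symbol is the FPKM of 1 library on a log axis for the 2 rRNAs and 13 mRNAs grouped by respiratory complex, cadmium in red to the left of control in blue, with lines at the mean of 3 libraries. The squares of cadmium replicate 2 and the circles of control replicate 1 lie lowest for every gene shown except mt-Nd6, where the circle of control replicate 1 is the highest.

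Per length, the mRNAs spanned from mt-Co1, at a mean of 3009 FPKM over the 6 libraries, to mt-Atp8 at 110 FPKM. mt-Co1 alone made up 32.6% of the summed mRNA FPKM and was above every other mRNA in 6 of 6 libraries. It was followed by mt-Co3 at 997, mt-Cytb at 901, mt-Co2 at 678, mt-Nd1 at 653 and mt-Nd6 at 642 FPKM. mt-Cytb was above mt-Co2 in 6 of 6 libraries and mt-Co3 above mt-Cytb in 3, so the order of mt-Co3 and mt-Cytb was not set by these libraries. mt-Co2 was above mt-Nd1 in 4 libraries, mt-Nd1 above mt-Nd6 in 3 and mt-Nd6 above mt-Nd4l in 4. Next came mt-Nd4l at 477, mt-Nd5 at 473, mt-Nd4 at 450 and mt-Atp6 at 446 FPKM, and of these the first 3 were each above the next in 3 of 6 libraries. mt-Atp6 was above mt-Nd2 in 5. mt-Nd2 at 248, mt-Nd3 at 154 and mt-Atp8 closed the order, mt-Nd2 above mt-Nd3 in 6 of 6 libraries and mt-Nd3 above mt-Atp8 in 5.

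Complex I, the NADH dehydrogenase that passes electrons to ubiquinone, has 7 mitochondrial mRNAs. mt-Nd1 (chrM:2751-3707), a subunit at the quinone site, was at 801, 388 and 749 FPKM in cadmium and at 406, 917 and 657 FPKM in control. mt-Nd2, mt-Nd4 and mt-Nd5 encode the antiporter-like subunits of the proton-pumping arm, and mt-Nd3, mt-Nd4l and mt-Nd6 encode its smaller membrane subunits. mt-Nd4l (chrM:9877-10173) was at 634, 313 and 596 FPKM in cadmium and at 193, 705 and 420 FPKM in control. Its log2 value of 0.35 was the largest positive one of the mRNAs, with SE 0.52 and an adjusted p of 0.721 (limma), and its groups overlapped. mt-Nd5 (chrM:11742-13565) varied least within the complex, at 518, 370 and 484 FPKM in cadmium and at 413, 570 and 483 FPKM in control, which is -0.10 as a log2 fold change (SE 0.20, adjusted p = 0.805). The fold changes of mt-Nd1, mt-Nd2, mt-Nd3 and mt-Nd4 were -0.02, 0.09, 0.22 and 0.08 on the log2 scale, none called.

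mt-Nd6 (chrM:13552-14070, minus strand), the only mRNA read from the light-strand promoter, did not follow the others. It was at 544, 645 and 622 FPKM in cadmium and at 874, 508 and 660 FPKM in control. Control replicate 1, lowest or second lowest in all heavy-strand mRNAs, was the highest here, and the groups overlapped. Reads of mt-Nd6 per read of the heavy-strand mRNAs were 0.0235, 0.0456 and 0.0292 in cadmium and 0.0625, 0.0235 and 0.0341 in control. The highest ratio of each group thus came from cadmium replicate 2 and control replicate 1, and the exact two-sided permutation p between groups was 0.6. The log2 fold change of mt-Nd6 was -0.14 (SE 0.23, adjusted p = 0.740, limma). mt-Nd6 overlaps mt-Nd5 by 14 bases on the opposite strand. Whether counting used strand is not given in the sources used here, so reads of mt-Nd6 and of antisense RNA from its place cannot be told apart.

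mt-Cytb (chrM:14145-15288), cytochrome b, is the mitochondrial subunit of complex III, which passes electrons from ubiquinol to cytochrome c. It was at 1084, 703 and 946 FPKM in cadmium and at 654, 1160 and 857 FPKM in control. Its log2 fold change was 0.05 (SE 0.27, adjusted p = 0.931, limma), and the groups overlapped. Relative to the reads of complex I mRNAs it was steady, at 0.369, 0.381 and 0.347 in cadmium and at 0.338, 0.355 and 0.347 in control (exact two-sided permutation p = 0.2).

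Complex IV, the cytochrome c oxidase that reduces oxygen, has its 3 catalytic core subunits encoded in the mitochondrion. mt-Co1 (chrM:5328-6872), which carries heme a and a copper center, was at 3622, 2450 and 3379 FPKM in cadmium and at 2578, 2855 and 3171 FPKM in control. It varied least of all 37 genes, and its log2 fold change was 0.12 with a 95% interval of -0.41 to 0.65 (SE 0.23, adjusted p = 0.780, limma). mt-Co2, which takes electrons from cytochrome c, was at 856, 445 and 790 FPKM in cadmium and at 405, 853 and 717 FPKM in control. mt-Co3 was at 1331, 643 and 1304 FPKM in cadmium and at 477, 1098 and 1128 FPKM in control, which is 0.31 as a log2 fold change (SE 0.43, adjusted p = 0.702). The values of mt-Co3 in cadmium replicates 1 and 3 were above every control value and that of cadmium replicate 2 was below 2 of 3, so the groups overlapped.

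Complex V, the ATP synthase, takes its proton channel subunit a from mt-Atp6 (chrM:7927-8607) and a small membrane subunit from mt-Atp8 (chrM:7766-7969). mt-Atp6 was at 643, 213 and 521 FPKM in cadmium and at 138, 753 and 406 FPKM in control. mt-Atp8 was at 149, 56.4 and 113 FPKM in cadmium and at 45.5, 210 and 83.7 FPKM in control. They were the most variable mRNAs, 5.45-fold and 4.62-fold between the highest and lowest library, and control replicates 1 and 2 were at opposite ends in both. Their log2 fold changes were 0.25 (SE 0.73) and 0.08 (SE 0.64), neither called. Both genes lie on 1 transcript and overlap by 43 bases, so reads in the overlap can count for either. Reads of complex V mRNAs per read of complex I mRNAs were 0.139, 0.0740 and 0.121 in cadmium and 0.0466, 0.149 and 0.104 in control, lowest in the same 2 libraries (exact two-sided permutation p = 0.7).

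Several mRNA values may hold or lack reads of nuclear copies. A stretch of nuclear chromosome 1 (chr1:24611535-24616197 on GRCm38, minus strand) carries 7 annotated pseudogenes copied from mitochondrial DNA. Aligned with blastn, 9 mRNAs had a copy of at least 95% identity over at least 50 bases in 11 nuclear genes, and neither the rRNAs nor the tRNAs had one among annotated transcripts. Gm28661, identical to mt-Co2 over 681 bases, was counted at 0.998 to 1.00 read per mt-Co2 read in all libraries. Gm28437, identical to mt-Co3 over 783 bases, was counted at 0.995 to 1.00 read per mt-Co3 read. Gm10925, identical to mt-Atp6 over 678 bases, was counted at 1.01 to 1.02. Gm10222, identical to mt-Nd4l over 294 of its 297 bases, was counted at 0.934 to 0.999 read per mt-Nd4l read. Gm28439, identical to the first 876 of the 1378 bases of mt-Nd4, was counted at 0.374 to 0.447 read per mt-Nd4 read. The identical copies of nearly full length and their mitochondrial genes had nearly equal read numbers, and reads of a pair cannot be told apart here. How reads that map to more than 1 place were handled is not given in the sources used here.

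The copies of mt-Nd3 and mt-Co1 on that stretch differ by 1 base each. Gm28438 differs from mt-Nd3 by 1 base in 345, T3C counted from the first base of mt-Nd3, and the 2 are shown from their first base on with that base in capitals, mt-Nd3 at chrM:9459-9521 on the plus strand and Gm28438 at chr1:24613057-24613119 on the minus strand.
mt-Nd3: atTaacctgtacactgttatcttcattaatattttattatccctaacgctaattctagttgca
Gm28438: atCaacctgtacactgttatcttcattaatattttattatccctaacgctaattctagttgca
Reads of Gm28438 per read of mt-Nd3 were 0.938, 0.805 and 0.934 in cadmium and 0.682, 0.954 and 0.912 in control. Gm29216 covers the last 31.3% of mt-Co1 and differs by A1066T, counted from the first base of mt-Co1, which the capitals mark in mt-Co1 at chrM:6390-6453 on the plus strand and in Gm29216 at chr1:24616125-24616188 on the minus strand.
mt-Co1: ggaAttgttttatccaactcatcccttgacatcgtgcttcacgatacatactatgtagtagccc
Gm29216: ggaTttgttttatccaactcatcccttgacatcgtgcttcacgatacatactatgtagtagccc
Gm29216 was at 881, 331 and 787 FPKM in cadmium and at 263, 1163 and 688 FPKM in control. Its FPKM varied 4.42-fold between libraries, beside 1.48-fold for the FPKM of mt-Co1. A separate list of 9 nuclear copies was not the set found by blastn. It held Gm10221 and Gm29155, which the search did not return, and lacked Gm13339, Gm13340, Gm13341 and Gm4076, which it did. None of the 8 tested genes of that list was called (limma), with 0 at an unadjusted p of 0.05.

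The tRNA genes are 59 to 75 bases long, shorter than the RNA pieces sequenced, so reads of a mature tRNA and of an uncut precursor cannot be told apart here. They were all counted in every library, from 1 read to 2496 reads. The sequences of 6 tRNAs that the results turn on follow from GENCODE release M21 on GRCm38, in DNA letters with the anticodon in capitals. The valine tRNA (mt-Tv, chrM:1025-1093, plus strand) had the lowest p of those that passed the filter. The cysteine tRNA (mt-Tc, chrM:5192-5257, minus strand) had the highest level. The alanine and asparagine tRNAs (mt-Ta, chrM:5018-5086, minus strand, and mt-Tn, chrM:5089-5159, minus strand) had the widest spread of the light-strand tRNAs. The leucine and arginine tRNAs (mt-Tl2, chrM:11671-11741, plus strand, and mt-Tr, chrM:9808-9875, plus strand) were highest in control replicate 1 by the widest margin.
mt-Tv: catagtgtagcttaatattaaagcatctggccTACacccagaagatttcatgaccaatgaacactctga
mt-Tc: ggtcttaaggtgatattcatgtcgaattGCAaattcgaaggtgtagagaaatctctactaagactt
mt-Ta: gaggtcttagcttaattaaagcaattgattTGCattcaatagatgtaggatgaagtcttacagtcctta
mt-Tn: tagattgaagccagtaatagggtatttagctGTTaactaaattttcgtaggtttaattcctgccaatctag
mt-Tl2: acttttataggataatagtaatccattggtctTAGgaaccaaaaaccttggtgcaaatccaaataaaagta
mt-Tr: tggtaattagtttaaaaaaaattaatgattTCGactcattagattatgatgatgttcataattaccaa
The alanine, asparagine and cysteine tRNAs are neighbours on the light-strand transcript.

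mt-Tv lies between the rRNA genes mt-Rnr1 and mt-Rnr2. It was counted with 22, 19 and 34 reads in cadmium and with 31, 51 and 43 reads in control, which is 6.15, 3.24 and 6.20 FPKM in cadmium and 6.37, 12.2 and 11.8 FPKM in control. All cadmium values were below all control values, the nearest pair being cadmium replicate 3 and control replicate 1. Groups did not overlap in 2 of the 37 genes, mt-Tv and mt-Td, beside 33.6% of all tested genes. mt-Tv averaged 5.20 ± 1.69 FPKM in cadmium and 10.1 ± 3.26 FPKM in control (SD, n = 3 each), and its log2 fold change was -0.84 with a 95% interval of -1.59 to -0.09. Its unadjusted p was 0.0334 and its adjusted p 0.146 (limma). Over 18 alternative settings the adjusted p ran from 0.0143, without cadmium replicate 2 and control replicate 1, to 0.317, without the filter, and the log2 fold change from -1.13 to -0.56. The within-batch log2 differences were -0.04, -1.64 and -0.83 in batches 1, 2 and 3. mt-Td, the aspartate tRNA, had 1, 3 and 1 reads in cadmium and 4, 5 and 4 reads in control, and was tested only without the filter. In that setting 0 of 37 mitochondrial genes were called, and the lowest adjusted p, that of mt-Td, was 0.0888 (limma).

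The 6 tRNAs with the highest FPKM were genes of the light-strand transcript. Since the use of strand in counting is not known, their reads and antisense reads of the heavy-strand precursor cannot be told apart. mt-Tc at a mean of 377, mt-Ty at 254, mt-Tn at 218, mt-Te at 166, mt-Ts1 at 141 and mt-Ta at 99.9 FPKM over the 6 libraries took the first 6 places of 22, and the first heavy-strand tRNA was mt-Tl1, a leucine tRNA, at 98.0 FPKM. mt-Ta and mt-Tl1 were near each other and their order was not set by these libraries. The remaining light-strand tRNAs, mt-Tq at 70.9 and mt-Tp at 38.6 FPKM, took places 13 and 15, below several heavy-strand tRNAs. At the low end were mt-Tv at 7.66, mt-Tf, the phenylalanine tRNA that opens the heavy-strand transcript, at 1.64, and mt-Td at 0.551 FPKM, all heavy-strand.

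mt-Tc was at 441, 232 and 481 FPKM in cadmium and at 168, 430 and 511 FPKM in control. mt-Tn was at 231, 109 and 265 FPKM in cadmium and at 43.2, 354 and 306 FPKM in control. mt-Ta was at 87.2, 39.9 and 110 FPKM in cadmium and at 13.2, 218 and 131 FPKM in control. In all 3 the lowest library of each group was cadmium replicate 2 or control replicate 1, and the groups overlapped. Their log2 fold changes were 0.14, 0.16 and -0.01, with standard errors of 0.49, 0.90 and 1.14. mt-Ty, the tyrosine tRNA, was at 296, 163 and 317 FPKM in cadmium and at 119, 297 and 334 FPKM in control, the same pattern. mt-Te, the glutamate tRNA, was at 199, 66.9 and 168 FPKM in cadmium and at 55.9, 307 and 196 FPKM in control.

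Some heavy-strand tRNAs ran the other way between libraries. mt-Tl2, a leucine tRNA, was at 79.9, 97.7 and 64.8 FPKM in cadmium and at 180, 42.8 and 74.7 FPKM in control. mt-Tr, the arginine tRNA, was at 59.8, 75.8 and 54.1 FPKM in cadmium and at 135, 37.4 and 73.3 FPKM in control. In both genes cadmium replicate 2 was the highest cadmium library and control replicate 1 the highest of all, the reverse of the light-strand tRNAs. The log2 fold changes were -0.06 (SE 0.52) for mt-Tl2 and -0.20 (SE 0.45) for mt-Tr, neither called. Reads of light-strand tRNAs per read of heavy-strand tRNAs were 2.25, 1.38 and 2.78 in cadmium and 0.691, 2.64 and 2.67 in control, lowest in the same 2 libraries (exact two-sided permutation p = 0.8).

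Among the other tRNAs, mt-Th, the histidine tRNA, and mt-Ts2, a serine tRNA, were lower in cadmium in each batch. mt-Th was at 83.3, 53.2 and 75.3 FPKM in cadmium and at 97.9, 73.4 and 85.5 FPKM in control, which is -0.29 as a log2 fold change (SE 0.20, adjusted p = 0.399, limma). mt-Ts2 was at 101, 74.7 and 83.1 FPKM in cadmium and at 141, 75.4 and 95.7 FPKM in control, which is -0.23 as a log2 fold change (SE 0.24, adjusted p = 0.579). The groups overlapped in both. mt-Tt, the threonine tRNA, was at 20.4, 11.2 and 13.6 FPKM in cadmium and at 8.28, 39.3 and 28.6 FPKM in control, which is -0.51 as a log2 fold change (SE 0.59, adjusted p = 0.634), and its lowest value of all was control replicate 1. tRNA reads per mRNA read were 0.0123, 0.0110 and 0.0131 in cadmium and 0.0120, 0.0161 and 0.0154 in control. Control replicates 2 and 3 were above all cadmium libraries, control replicate 1 was not, and the exact two-sided permutation p was 0.3.

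**Figure D4:**
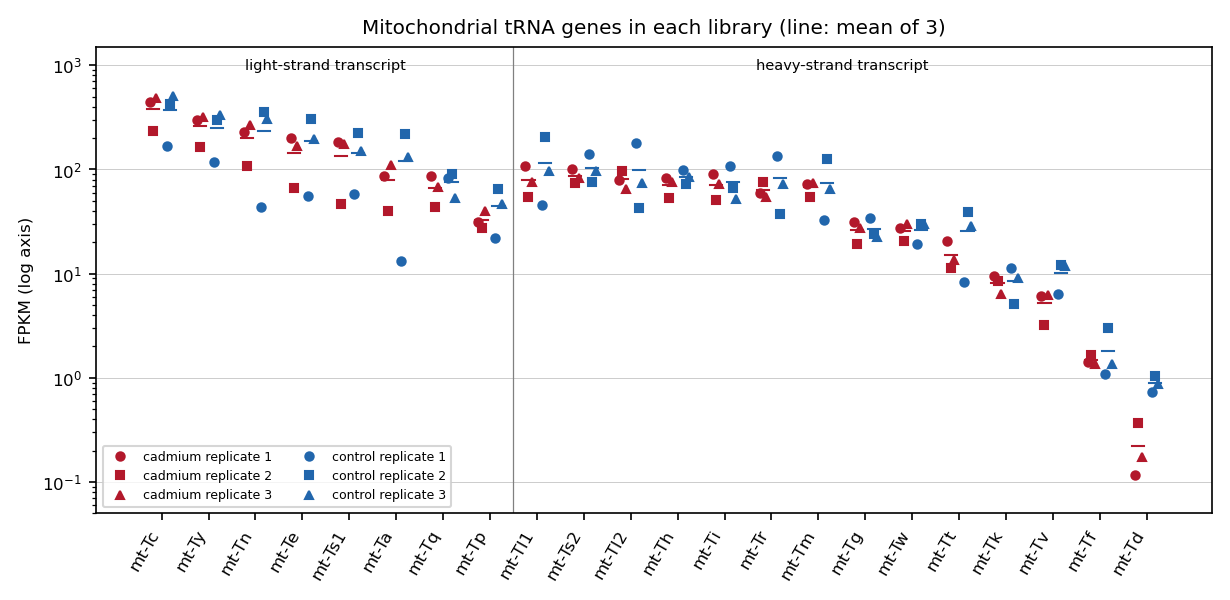
Each symbol is the FPKM of 1 library on a log axis for the 22 tRNA genes, light-strand genes at the left and heavy-strand genes at the right, with cadmium in red to the left of control in blue and lines at the mean of 3 libraries. Light-strand tRNAs show the squares of cadmium replicate 2 and the circles of control replicate 1 at the bottom in 7 of 8 genes, while mt-Tl2 and mt-Tr show these circles at the top.

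The nuclear partners of the mitochondrial mRNAs were measured in the same libraries. The nuclear-encoded subunits of complexes I, III, IV and V held 0.543%, 0.544% and 0.593% of reads in cadmium and 0.500%, 0.630% and 0.607% in control. None of the 72 tested was called in the fit over all genes (limma), beside 9.68% of all tested genes. At an unadjusted p of 0.05 there was 1, beside 27.0% of all tested genes, and their median log2 fold change was -0.03 beside 0.09. Mitochondrial mRNA reads per read of these subunits were 2.81, 1.74 and 2.33 in cadmium and 1.85, 2.23 and 2.12 in control, with overlapping groups (exact two-sided permutation p = 0.6). Complex II, wholly nuclear-encoded, had 0 of 4 subunits called and 0 at an unadjusted p of 0.05.

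Of 16 mitochondrial chaperones and proteases 1 was called higher and 0 lower, which is 6.25%, beside 9.68% of all tested genes. It was Clpx, the unfoldase that feeds the ClpP protease of the matrix and also acts on the first enzyme of heme synthesis. Clpx was at 28.3, 21.1 and 29.7 FPKM in cadmium and at 8.06, 11.4 and 9.96 FPKM in control. All cadmium libraries were above all control libraries, cadmium replicate 2 and control replicate 1 included. Its log2 fold change was 1.34 (SE 0.17, adjusted p = 0.00891, limma), and the adjusted p was 0.0705 without the filter on low values. The median log2 fold change of the list was -0.05. The chaperonin Hspe1 averaged 22.6 ± 3.10 FPKM in cadmium and 27.96 ± 2.30 FPKM in control (SD, n = 3 each; adjusted p = 0.194).

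Genes that read and copy mitochondrial DNA were not called, 0 of 12 in either direction (limma), beside 9.68% of all tested genes. At an unadjusted p of 0.05 there were 4, beside 27.0% of all tested genes, and the median log2 fold change was 0.01. Tfam, which packs the DNA and opens its promoters, averaged 3.65 ± 0.236 FPKM in cadmium and 3.86 ± 0.533 FPKM in control (adjusted p = 0.770). Polrmt, the RNA polymerase of the organelle, averaged 3.39 ± 0.472 FPKM in cadmium and 3.79 ± 0.315 FPKM in control (adjusted p = 0.478). Among the 6 tested regulators of mitochondrial biogenesis 0 were called higher and 1 lower, beside 7.86% and 1.82% of all tested genes. That gene, Pprc1, a coactivator related to Ppargc1a, fell to 0.738, 1.096 and 0.851 FPKM in cadmium, against 1.40, 1.40 and 1.59 FPKM in control (log2 fold change -0.38, SE 0.09, adjusted p = 0.0433). Its call was lost with the replicate block (adjusted p = 0.0970), without the filter (0.122), and without cadmium replicates 1 or 3 or any control replicate (0.0709 to 0.155). Pprc1 was below 1 FPKM in cadmium replicates 1 and 3 and above it in every control library. It thus met the filter through the group where it was high, and its call is given as a description. Ppargc1a, the main coactivator of biogenesis, averaged 1.41 ± 0.0512 FPKM in cadmium and 1.27 ± 0.119 FPKM in control (adjusted p = 0.502).

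Of 21 genes of mitochondrial RNA processing, polyadenylation and decay 0 were called higher and 1 lower, beside 7.86% and 1.82% of all tested genes, with a median log2 fold change of -0.07. Pde12, which shortens the tails of mitochondrial mRNAs, fell to 0.618, 0.816 and 0.762 FPKM in cadmium, against 1.098, 1.28 and 1.38 FPKM in control (log2 fold change -0.38, SE 0.08, adjusted p = 0.0360, limma). The call was lost with the replicate block (adjusted p = 0.0715), without the filter (0.0979), without both libraries that stood apart (0.0530), and without any cadmium replicate or control replicates 2 or 3 (0.0632 to 0.122). Pde12 was below 1 FPKM in every cadmium library and passed the filter only through the control libraries, where it was high. Its call is therefore given as a description. Lrpprc, which holds mitochondrial mRNAs in a stable complex, averaged 9.76 ± 0.878 FPKM in cadmium and 10.7 ± 0.686 FPKM in control (adjusted p = 0.501). Pnpt1, a subunit of the degrading exonuclease complex, averaged 2.31 ± 0.238 FPKM in cadmium and 2.42 ± 0.401 FPKM in control (adjusted p = 0.846).

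The machinery of mitochondrial translation was measured in 4 lists. Of 83 ribosomal proteins 1 was called higher and 0 lower, beside 7.86% and 1.82% of all tested genes, with a median log2 fold change of 0.00. Mrpl44, a protein of the large subunit, rose to 6.07, 6.26 and 6.60 FPKM in cadmium, against 3.80, 4.42 and 4.55 FPKM in control (log2 fold change 0.48, SE 0.09, adjusted p = 0.0228, limma). Its call was lost with the replicate block (adjusted p = 0.0594), without the filter (0.0767), in the deposited log2 values (0.0785), with voom (0.0760), without both libraries that stood apart (0.0630), and without any cadmium replicate or control replicate 3 (0.0531 to 0.109). None of 18 aminoacyl-tRNA synthetases, 10 translation factors and 16 tRNA and rRNA modifying enzymes was called (limma), beside 9.68% of all tested genes. At an unadjusted p of 0.05 there were 2, 2 and 4, beside 27.0% of all tested genes, and the medians were 0.12, 0.12 and 0.04. The lowest adjusted p among them was that of Yrdc, which helps to modify tRNAs next to the anticodon, at 2.64 ± 0.669 FPKM in cadmium and 4.15 ± 0.260 FPKM in control (SD, n = 3 each; adjusted p = 0.0617).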

How the data were processed

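Per the labels' protocols, libraries were built with a low-input RNA kit and read as 150-base pairs. The submitters' processing notes name mm10 and, without role or order, DESeq2 4.1.0, MACS2 2.1.1, SAMtools 1.3.1, cutadapt 1.1.8 and STAR 2.7.1a. Not given in the sources used here are the counter, its annotation and its use of strand. The authors deposited FPKM per gene and, in a second table, log2 values with symbols and their own log2 fold changes, p-values and FDR. Undoing log2 gave whole reads for 100% of values in each library, within 0.05 of a read. 0 columns per sample were left unused.

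From the deposited FPKM, log2(FPKM + 1) entered a fit by limma 3.58.1 (R 4.3.3) with robust moderation, a variance trend and Benjamini-Hochberg adjustment over 9908 genes with at least 1 FPKM in at least 3 of 6 libraries. The fit was tested on simulated data with noise drawn independently for each gene. Those data held no deviation shared by many genes of a library, as the mitochondrial genes had, so they do not bear on the fit of these genes. FPKM follow the library total, which a few abundant RNAs shape. Fold changes understate the change of low genes. Shares and ratios of recovered reads were compared by exact permutation tests. Transcripts, coordinates and sequences are from GENCODE release M21 on GRCm38, the assembly of mm10, and copies were sought with blastn 2.17.0.

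The members and gene lists were chosen with earlier results of these data known. Named genes are all mitochondrial genes, the up to 4 genes of lowest p per list, all listed nuclear copies and 6 fixed genes. The batch number of the labels pairs the libraries. Deviations from the group means of libraries with the same number correlated at -0.21, -0.23 and -0.02, and those of other pairs at -0.10 to 0.28. Ratios involving nuclear subunits or tRNA strands, and the search for copies, were added after the data were seen.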

Additional observations from a re-analysis of the deposited data

How the results depend on the processing

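Of all tested genes 779 were called higher and 180 lower, 959 in all. In the deposited log2 values 381 were higher and 493 lower. The split was 510 to 233 under upper quartile scaling, 372 to 291 under trimmed means and 347 to 298 under quantile normalization. The total was 37 without the filter, 189 after scaling to mitochondrial mRNA and 248 with the replicate block, and leaving out 1 library gave 101 to 781, lowest without cadmium replicate 3. The causes were not tested. The count of mitochondrial genes called was 0 in every alternative but 1. It was 1 without cadmium replicate 2 and control replicate 1 together, where 722 of 9908 tested genes were called. Scaled to mitochondrial mRNA, the calls of Pprc1, Pde12 and Mrpl44 were lost at adjusted p of 0.616, 0.558 and 0.9999 (limma). No call of a mitochondrial gene changed with the replicate block. Of 36 mitochondrial genes 33 changed the sign of their fold change in at least 1 of 18 alternatives, and 3, mt-Th, mt-Tt and mt-Tv, in none. The sign of mt-Th was kept only barely, as its log2 fold change was -0.000307 without cadmium replicate 2 and control replicate 1. Of 24 shares and ratios 19 changed sign in at least 1 alternative, all by less than the spread between libraries. With 3 libraries a group, no exact p can fall below 0.1, and mt-Td and mt-Tf rest on at most 13 reads a library.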

Other observations

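Lars2, the nuclear gene of the mitochondrial leucyl-tRNA synthetase, varied between libraries in the way of the mitochondrial genes. It was at 132, 32.0 and 67.7 FPKM in cadmium and at 16.3, 71.9 and 59.9 FPKM in control, lowest in cadmium replicate 2 and control replicate 1, and its log2 fold change of 0.66 had SE 0.75 and an adjusted p of 0.632 (limma). Its residual standard deviation was 1.07 log2 units, beside 0.0912 as the median of the 18 tested synthetases. Lars2 averaged 77.3 FPKM in cadmium and 49.4 FPKM in control, beside 5.11 and 3.92 FPKM for Gatb of the same list. It was also listed among the abundant RNAs that shape library composition. Whether its reads come from the synthetase mRNA was not tested.
Some markers of other liver cells were called while no mitochondrial gene was, beside 7.86% of all tested genes called higher and 1.82% called lower. Of the Kupffer cell and macrophage markers 3 of 9 tested were called higher in cadmium, of the sinusoidal endothelial markers 2 of 8 and of the stellate cell and fibroblast markers 5 of 6. Their summed FPKM ran from 96.9 to 112, from 37.8 to 51.4 and from 29.4 to 33.3 in cadmium, and from 46.9 to 81.0, from 27.9 to 40.3 and from 12.5 to 19.1 in control. No marker of these lists was at 0 in all libraries, and their part in the mitochondrial values was not tested. The summed endothelial markers overlapped between groups. Of the 9 tested hepatocyte and 5 tested erythroid markers 0 were called, and of the cholangiocyte and B cell markers 1 each was tested and 0 called.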
